A study of Mus musculus with 33 samples.

Results

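This section describes how transcript levels changed over 4 h of transcription block in cultured mouse neural stem cells labelled as Ythdf2 conditional knockout (cKO). The comparison sets 3 libraries taken after 4 h of actinomycin D against 3 libraries taken at 0 h, 6 of the 33 libraries of the series, chosen by their labels. Cells of both groups came from the hippocampus of mice at postnatal day 0.5 and carried the genotype label Nestin-cKO, a name that by convention means deletion by Cre recombinase under the promoter of Nestin, a neural progenitor gene. They were grown on poly-D-lysine in DMEM/F12 medium with B27, N2, bFGF and EGF, and actinomycin D, a drug that stops RNA synthesis, was given at 5 µM. Libraries of the same label at 2 h (3) and libraries labelled Nestin-WT at 4 h and 0 h (3 each) served for the time course and for the difference between labels. Immunoprecipitated RNA from WT cells (m6A pull-down with its input, and YTHDF2 pull-down with IgG and input, 3 libraries each) added a second readout of the same transcripts.

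Once RNA synthesis is blocked, the level of a transcript depends on how fast it is degraded. mRNA decay usually starts with shortening of the poly(A) tail by deadenylases, followed by removal of the cap and digestion from both ends. N6-methyladenosine (m6A) is a methyl mark on internal adenosines of mRNA, and YTHDF2 is a cytoplasmic reader of that mark that recruits deadenylases to the marked transcript. Transcripts of signal-induced transcription factors are known for fast decay, and those of ribosomal proteins and metabolic enzymes for slow decay. The labels name no spike-in, so each value is a level relative to the other transcripts of the same library, and a transcript lost more slowly than most appears higher at 4 h.

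Total counts per library were 16296325 to 18909890 at 4 h and 10257329 to 12033301 at 0 h in the libraries labelled cKO, so the 4 h libraries were the deeper ones. Levels are given as CPM, the count scaled by the TMM-adjusted library size, for replicates 1, 2 and 3 in that order. Log2 levels of the 0 h libraries correlated at 0.968 between replicates 2 and 3 but at 0.948 and 0.927 between replicate 1 and the other two, so replicate 1 at 0 h stood apart. At 4 h these correlations were 0.937 to 0.967. Ribosomal protein genes held 5.87% to 6.37% of counts at 4 h and 3.89% to 4.67% at 0 h, and mitochondrially encoded genes held 1.56% to 2.07% at 4 h and 3.09% to 3.16% at 0 h. The 10 neural stem cell markers summed to 10500 to 14930 CPM at 4 h and 9089 to 12200 CPM at 0 h, with Hes5 alone under 1 CPM in all 6 libraries. Microglial markers summed to at most 7.56 CPM, with 6 of 8 at 0 counts (Cx3cr1, Csf1r, C1qa, C1qb, Tmem119 and Tyrobp), and endothelial markers to at most 3.35 CPM. Astrocyte markers summed to 1464 to 1735 CPM at 4 h and 867 to 1197 CPM at 0 h.

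Ythdf2 itself, the gene that the label names as deleted, was not low in these libraries. It lies at chr4:132184916-132212256 (GRCm38.p6) and had 1418, 1362 and 1433 CPM at 4 h, against 3117, 1035 and 736 CPM at 0 h. The 0 h group spanned the whole 4 h group, with replicate 1 far above the other two. Libraries labelled WT had 63.0, 60.4 and 88.5 CPM at 4 h and 219, 253 and 258 CPM at 0 h, all below every library labelled cKO. The deposited counts are per gene and cannot show whether reads lie in the deleted part of the gene, so the counts go against the label without checking the deletion, and the groups are called libraries labelled cKO or WT throughout. The log2 change of Ythdf2 over 4 h was -0.21 (SE 0.35, adjusted p = 0.680), and without replicate 1 at 0 h it was 0.67 (adjusted p = 0.0172). Scaled to the ribosomal protein genes it was -0.88 (adjusted p = 0.0363).

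Over 4 h, signal-induced transcription factors, feedback regulators of growth factor signalling and many chromatin and zinc finger genes fell, and ribosomal protein and respiratory chain genes rose relative to the rest. Of 14029 genes tested with edgeR's quasi-likelihood test (Benjamini-Hochberg adjusted p under 0.05), 1694 were higher at 4 h (12.1%) and 2528 were lower (18%). All counts of list members below are to be read beside these shares. Falls were larger than rises: 2062 genes were lower by more than 2-fold (14.7%) and 406 were higher by more than 2-fold (2.89%). The median log2 change of all genes tested was 0.08, and it was -1.93 in the genes lower by more than 2-fold and 0.80 in the genes that rose. The balance of the calls depended on how libraries were scaled. Higher genes made up 40.1% of the calls here, 14% when libraries were scaled by total count alone, 6.75% with the deposited TPM values and 0.541% when ribosomal protein genes were taken as unchanged. Without replicate 2 at 4 h, 887 genes were higher, 240 of them by more than 2-fold. The count higher by more than 2-fold was 223 without replicate 1 at 0 h and 856 without replicate 3 at 0 h.

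**Figure D1:**
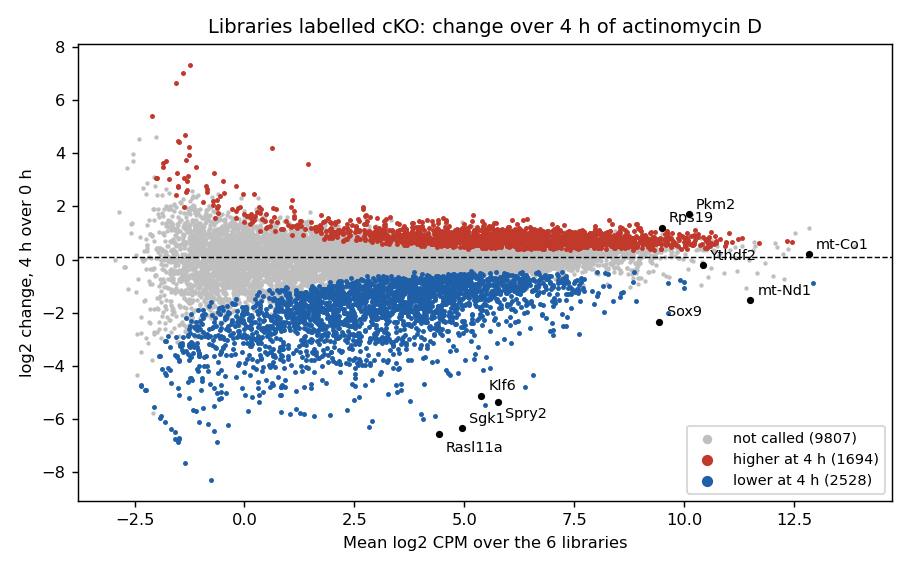
Log2 change at 4 h over 0 h (vertical axis) against the mean log2 CPM of the 6 libraries labelled cKO (horizontal axis), 1 point per gene tested, with the median of all genes as a dashed line. The 1694 genes called higher lie mostly at high levels and within a narrow band, and the 2528 called lower reach log2 changes below -6, as for Rasl11a and Sgk1.

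The classes of change also differed in gene length, transcript length and level, the last taken from the same libraries as the classes. Genes that rose were short, with a median gene length of 13.8 kb in the RefSeq annotation against 24.5 kb for all genes tested, and they were well expressed, with a median of 5.93 log2 CPM against 3.44. Genes lower by more than 2-fold had a median gene length of 25.8 kb and a median level of 2.66 log2 CPM. Relative transcript length, taken from the ratio of deposited counts to deposited TPM, had a median of 0.624 in genes that rose, 1.29 in genes lower by more than 2-fold and 1.43 in genes lower by less than that, with all genes at 0.998. These medians are descriptions, since length and level move together with the depth at which a change can be called. The 3 values of each group did not overlap for 93.6% of the genes lower by more than 2-fold and for 34.4% of all genes tested. The same values set the classes, so a higher share among called genes was fixed in advance. Most genes named below were picked for a small p or for groups that did not overlap. Statements that their groups lay apart are therefore descriptions and add no support to the calls.

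**Figure D2:**
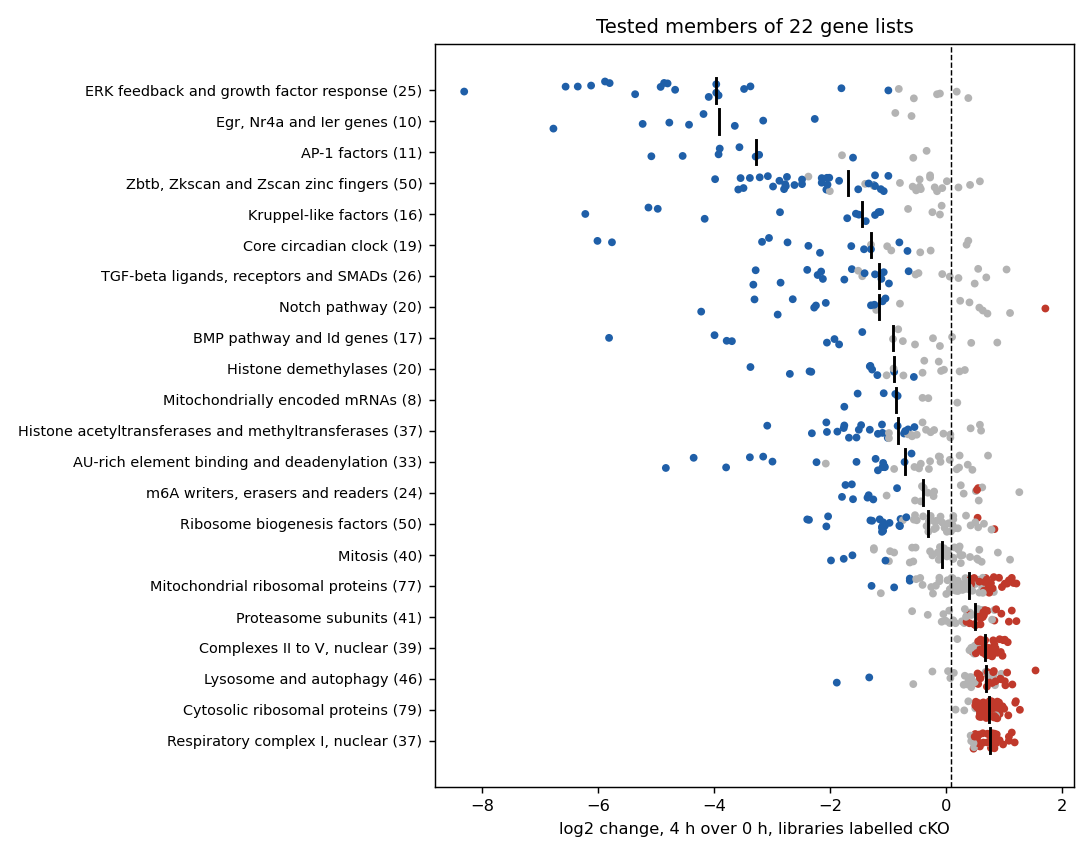
Log2 change at 4 h over 0 h of each tested member of 22 gene lists in the libraries labelled cKO, with genes called higher in red, genes called lower in blue, genes not called in grey, the median of each list as a black bar and the median of all genes as a dashed line. Numbers in parentheses count tested members. Lists of signal-induced regulators lie at the top with medians near -4, and respiratory complex I and ribosomal protein genes at the bottom with medians of 0.76 and 0.74.

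Many immediate early genes, whose transcription follows growth factor or stress signals within minutes, fell. AP-1 factors, the dimeric Fos and Jun transcription factors, were lower in 8 of 11 tested members (median log2 change -3.28), against a background of 18% of all genes. Fosl2 had 1.72, 1.22 and 1.92 CPM at 4 h, against 68.4, 51.8 and 44.8 CPM at 0 h (log2 change -5.08, adjusted p = 2.34e-08). Fos had 0.801, 1.22 and 1.86 CPM at 4 h, against 16.0, 20.6 and 22.5 CPM at 0 h (-3.92, adjusted p = 1.27e-06). In both genes every 4 h library lay more than 5 times below every 0 h library.

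Jun had 0.801, 1.22 and 2.76 CPM at 4 h, against 45.9, 29.1 and 37.0 CPM at 0 h (-4.54, adjusted p = 2.98e-06), and without replicate 3 at 4 h the log2 change was -5.20. Of the Egr, Nr4a and Ier genes, which encode zinc finger factors, nuclear receptors and small response proteins, 8 of 10 fell (median -3.91). Egr1 had 1.20, 0.960 and 1.02 CPM at 4 h, against 43.2, 19.6 and 25.1 CPM at 0 h (-4.77, adjusted p = 2.40e-07). The groups of Egr1 did not overlap, and its level at 2 h (1.93, 0.973 and 1.98 CPM) was already near that at 4 h. Ier5 fell by 4.18 and Ier3 by 2.26 on the log2 scale (adjusted p = 1.73e-05 and 0.000541).

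The ERK kinase cascade carries FGF and EGF signals. The list of ERK feedback and growth factor response genes had the lowest median, -3.96, close to -3.91 for the Egr, Nr4a and Ier genes. Without replicate 1 at 4 h these medians were -4.02 and -4.03. Of the 25 tested members of the ERK list, 19 fell and none was higher. Dusp6, a phosphatase that switches off ERK, lies at chr10:99263231-99267489 and had 1.72, 3.52 and 1.32 CPM at 4 h, against 120, 110 and 136 CPM at 0 h (-5.80, SE 0.41, adjusted p = 3.53e-08). Spry2, which restrains receptor tyrosine kinase signalling, had 8.87, 8.64 and 9.79 CPM at 4 h, against 676, 250 and 196 CPM at 0 h (-5.36, adjusted p = 3.92e-08), or -4.61 without replicate 1 at 0 h. Its relative Spry4 had 20.5, 18.3 and 10.4 CPM at 4 h, against 322, 609 and 439 CPM at 0 h (-4.80, adjusted p = 1.36e-08). In each of these genes the highest 4 h library lay far below the lowest 0 h library.

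Rgs2, a regulator of G protein signalling, had 2.12, 3.14 and 2.22 CPM at 4 h, against 49.4, 36.5 and 41.7 CPM at 0 h (-4.09, adjusted p = 4.41e-09). Among well expressed genes whose groups did not overlap, the 4 with the largest falls were Rasl11a, Sgk1, Bhlhe40 and Plk2. Rasl11a, a small GTPase of the Ras family, lies at chr5:146845071-146847726 and had 1.32, 2.11 and 3.18 CPM at 4 h, against 186, 198 and 239 CPM at 0 h (-6.56, SE 0.34, adjusted p = 2.33e-09). Sgk1, a kinase downstream of PI3 kinase, had 3.66, 4.09 and 2.76 CPM at 4 h, against 155, 410 and 295 CPM at 0 h (-6.35, adjusted p = 4.41e-09). Plk2, a Polo-like kinase that was listed here with the p53 targets, had 2.69, 1.73 and 3.79 CPM at 4 h, against 256, 105 and 126 CPM at 0 h (-5.88, adjusted p = 3.12e-07). Rnd3, a small GTP-binding protein of the actin cytoskeleton, had 6.58, 5.95 and 7.75 CPM at 4 h, against 187, 350 and 369 CPM at 0 h (-5.48, adjusted p = 4.41e-09). Rasl11a, Sgk1, Plk2 and Rnd3 were each under 10 CPM in every 4 h library and above 100 CPM in every 0 h library.

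The promoters of Plk2 and Fos are shown because signal-induced transcription of such genes runs through short elements near their start. They are the RefSeq promoter windows of 250 bases before to 50 bases from the annotated start (GRCm38.p6), read 5′ to 3′ on the strand of the gene. Capitals mark the full cyclic AMP response element (TGACGTCA), which begins 62 bases before the start in Plk2, and the core promoter element TATAAA, which begins 33 bases before the start in Fos.
Plk2, chr13:110394794-110395093, plus strand: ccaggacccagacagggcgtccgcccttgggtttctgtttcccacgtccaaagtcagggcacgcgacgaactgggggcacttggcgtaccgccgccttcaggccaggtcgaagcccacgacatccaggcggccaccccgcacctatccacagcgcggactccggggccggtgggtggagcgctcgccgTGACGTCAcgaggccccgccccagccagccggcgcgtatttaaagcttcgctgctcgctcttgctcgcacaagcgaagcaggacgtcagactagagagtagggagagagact
Fos, chr12:85473640-85473939, plus strand: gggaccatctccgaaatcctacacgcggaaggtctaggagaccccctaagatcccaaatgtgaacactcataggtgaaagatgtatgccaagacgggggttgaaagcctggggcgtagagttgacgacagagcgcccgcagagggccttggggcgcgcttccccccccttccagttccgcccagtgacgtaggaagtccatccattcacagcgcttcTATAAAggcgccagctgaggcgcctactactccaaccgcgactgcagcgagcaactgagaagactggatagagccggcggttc
Searched on both strands of these windows, TATAAA was present for 7 of 39 genes of the AP-1, Egr, Nr4a, Ier and ERK feedback lists with a window (17.9%), and for 8.89% of the 9655 genes tested with a window. TGACGTCA was present for 4 of those listed genes (10.3%) and for 3.66% of all genes with a window. The CArG box, the site of serum response factor, which can itself contain TATAAA, was present for 3 of the listed genes (7.69%) and for 1.62% of all. TGACGTCA was as frequent in cytosolic ribosomal protein genes, a list that rose (10.5%), and was present for 7.94% of respiratory complex I to V genes. In these lists TATAAA was present for 10.5% and 7.94%, and the CArG box for 1.75% and 0%. A gene counted if any of its windows, up to 9 per gene, held the motif, so genes with more annotated starts had more chances of a match. The motifs and both genes were chosen with the values known, and a match is no measure of binding.

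Other short-lived regulators fell with them. Kruppel-like factors, zinc finger factors of differentiation and growth control, were lower in 12 of 16 tested members (median -1.44). Klf6 lies at chr13:5861489-5870393 and had 6.98, 6.33 and 7.87 CPM at 4 h, against 197, 260 and 289 CPM at 0 h (-5.13, SE 0.23, adjusted p = 4.29e-10). Klf10 had 14.4, 8.64 and 8.11 CPM at 4 h, against 152, 243 and 164 CPM at 0 h (-4.16, adjusted p = 2.34e-08). Klf9, a glucocorticoid-responsive member, fell less, with 10.8, 8.38 and 13.0 CPM at 4 h, against 31.8, 24.5 and 35.1 CPM at 0 h (-1.50, adjusted p = 8.97e-05). The groups did not overlap in any of the 3.

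Myc, the growth-promoting transcription factor, had 1.83, 2.11 and 2.76 CPM at 4 h, against 152, 66.3 and 48.9 CPM at 0 h (-5.31, adjusted p = 1.89e-07), or -4.68 without replicate 1 at 0 h. Its network had 5 of 12 tested members lower (median -0.91), among them Mga, a Max partner, at -1.21 (adjusted p = 0.000170). NF-kB and cytokine feedback genes were lower in 9 of 19 (median -1.22). Nfkbiz, an atypical inhibitor of NF-kB, had 1.43, 2.18 and 2.76 CPM at 4 h, against 63.2, 73.3 and 57.2 CPM at 0 h (-4.92, adjusted p = 8.10e-08), and the inhibitor Nfkbia had 1.66, 1.66 and 2.10 CPM at 4 h, against 29.1, 24.1 and 27.6 CPM at 0 h (-3.89, adjusted p = 1.44e-06). Rela, a subunit of NF-kB itself, had 11.1, 10.7 and 22.5 CPM at 4 h, against 18.5, 16.0 and 17.5 CPM at 0 h, groups that overlapped (-0.23, adjusted p = 0.604).

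Core clock genes were lower in 12 of 19 (median -1.29). Bhlhe40, a repressor of the clock, had 2.58, 2.18 and 1.56 CPM at 4 h, against 73.9, 162 and 172 CPM at 0 h (-6.01, adjusted p = 1.36e-08), and Nfil3, a repressor of D-box genes, had 0.172, 0.128 and 0.240 CPM at 4 h, against 11, 11 and 8.52 CPM at 0 h (-5.75, adjusted p = 7.18e-08). Arntl, the activator at the centre of the loop, had 1.26, 0.896 and 1.38 CPM at 4 h, against 5.71, 10.8 and 7.09 CPM at 0 h (-2.73, adjusted p = 7.30e-06). All 3 were lower in every 4 h library than in any 0 h library.

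Among the pathways that hold neural stem cells in an undifferentiated state, the Notch list had 11 of 20 tested members lower and 1 higher (median -1.15). With the replicate number as a block 4 were higher, and without the libraries of replicate 2 at all 3 times 6 were lower. Notch receptors are cut upon ligand binding and then switch on Hes genes. Hes1, a repressor of neuronal genes, had 1.66, 2.5 and 1.92 CPM at 4 h, against 24.1, 58.3 and 31.0 CPM at 0 h (-4.22, adjusted p = 3.02e-06). The receptors did not move alike. Notch2 had 1.95, 2.05 and 3.96 CPM at 4 h, against 17.6, 12.4 and 8.52 CPM at 0 h (-2.27, adjusted p = 0.000245), and Notch1 had 21.1, 38.9 and 39.9 CPM at 4 h, against 22.7, 29.4 and 31.7 CPM at 0 h (0.25, adjusted p = 0.480). For Notch1 the groups overlapped and the sign was negative with ribosomal protein genes as reference and with TPM.

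BMP pathway and Id genes were lower in 8 of 17 (median -0.91). The Id proteins block bHLH factors and are direct targets of BMP signals. Id1 had 0.859, 2.05 and 2.10 CPM at 4 h, against 23.2, 21.8 and 34.7 CPM at 0 h (-3.99, adjusted p = 2.14e-05). Id3 had 1.89, 6.66 and 6.73 CPM at 4 h, against 56.7, 70.2 and 70.1 CPM at 0 h (-3.69, adjusted p = 1.37e-05). Id2 was the most abundant of the 3 and fell less, to 62.4, 61.0 and 102 CPM at 4 h, against 409, 257 and 264 CPM at 0 h (-2.05, adjusted p = 4.24e-05).

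Sox and forebrain identity factors were lower in 14 of 30, with none higher (median -1.43). Sox2, the factor that defines neural stem cells, had 12.1, 12.3 and 31.9 CPM at 4 h, against 102, 61.9 and 69.8 CPM at 0 h (-2.06, adjusted p = 0.000342), and without replicate 3 at 4 h the log2 change was -2.68. Sox9, a glial and stem cell factor, had 269, 244 and 492 CPM at 4 h, against 2925, 1135 and 1038 CPM at 0 h (-2.34, adjusted p = 0.000149), or -1.70 without replicate 1 at 0 h. In both, replicate 3 was the highest 4 h library and still below the 0 h range.

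Olig2, a factor of the oligodendrocyte lineage, had 12, 7.93 and 18.4 CPM at 4 h, against 138, 73.7 and 50.8 CPM at 0 h (-2.77, adjusted p = 1.56e-05). By contrast Vim, the intermediate filament vimentin, had 948, 2017 and 3304 CPM at 4 h, against 1671, 1803 and 1759 CPM at 0 h, groups that overlapped (0.26, adjusted p = 0.646; -0.23 without replicate 3 at 4 h). The 4 nuclear factor I genes, which promote glial fate and stem cell quiescence, also stayed out of the falling group. Nfix had 106, 83.3 and 61.8 CPM at 4 h, against 39.8, 37.0 and 50 CPM at 0 h (0.99, adjusted p = 0.00262), and Nfia had 1266, 1069 and 776 CPM at 4 h, against 1086, 914 and 559 CPM at 0 h (0.28, adjusted p = 0.397), groups that overlapped for Nfia and not for Nfix.

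TGF-β ligands bind a receptor pair that phosphorylates SMAD2 and SMAD3, which enter the nucleus with SMAD4, while SKI and SKIL hold SMADs back and SMAD7 and SMURF2 shut the receptor down. Of 26 tested members of the pathway 15 were lower and none higher (median -1.16), and the median stayed negative under each of the 6 scalings. Without replicate 1 at 0 h, 2 members were higher. The count lower was 10 without replicate 1 at 4 h or without all libraries of replicate 1 or of replicate 2. It was 7 when only the libraries compared were fitted. Among ligands and their carriers, Tgfb2 had 154, 87.4 and 96.3 CPM at 4 h, against 121, 87.8 and 82.1 CPM at 0 h (0.22, adjusted p = 0.497), groups that overlapped and a sign that flipped by library size, by ribosomal protein genes, by TPM and without replicate 1 at 4 h. Ltbp3, which stores latent TGF-β in the matrix, had 12.1, 12.6 and 14.8 CPM at 4 h, against 11.3, 8.93 and 7.73 CPM at 0 h (0.50, adjusted p = 0.0879; 0.66 and adjusted p = 0.0381 without replicate 1 at 0 h). Inhba, an activin subunit, was close to undetected, with 0, 0 and 0.3 CPM at 4 h, against 1.08, 1.35 and 0.717 CPM at 0 h. Its log2 change of -3.28 (adjusted p = 0.0200) was lost without replicate 1 or 2 at 4 h or replicate 2 at 0 h (adjusted p = 0.0685, 0.0819 and 0.0594) and was -7.01 without replicate 3 at 4 h.

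Of the receptors, Tgfbr1, Acvr2a and Tgfbr2 fell. Tgfbr1, the type I receptor kinase, had 8.76, 11.1 and 7.33 CPM at 4 h, against 31.0, 30.9 and 21.7 CPM at 0 h (-1.62, SE 0.22, adjusted p = 3.19e-05). Acvr2a, an activin receptor, had 9.10, 8.57 and 6.61 CPM at 4 h, against 36.5, 25.6 and 19.5 CPM at 0 h (-1.75, adjusted p = 7.69e-05). Both had every 4 h library well below every 0 h library. Tgfbr2, the type II receptor, had 0.229, 1.41 and 2.76 CPM at 4 h, against 3.81, 6.98 and 9.64 CPM at 0 h (-2.21, adjusted p = 0.0196). Its call was lost without replicate 1 at 4 h (-1.73, adjusted p = 0.0525), replicate 2 at 4 h (-2.20, adjusted p = 0.0649) or replicate 3 at 0 h (-1.88, adjusted p = 0.0607), and the log2 change was -3.06 without replicate 3 at 4 h. Bmpr2, the BMP type II receptor, had 20.7, 14.8 and 9.85 CPM at 4 h, against 10.8, 16.1 and 15.1 CPM at 0 h, groups that overlapped (0.11, adjusted p = 0.787; -0.23 without replicate 1 at 4 h and -0.05 without replicate 1 at 0 h).

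Of the SMADs, Smad2 had 19.4, 24.1 and 33.9 CPM at 4 h, against 45.6, 65.4 and 68.9 CPM at 0 h (-1.22, SE 0.22, adjusted p = 0.000506). Smad3 had 22.5, 24.4 and 44.0 CPM at 4 h, against 51.3, 63.7 and 81.6 CPM at 0 h (-1.11, SE 0.26, adjusted p = 0.00384). Neither gene overlapped between groups, although replicate 3 at 4 h came close. Smad4 did, with 16.5, 18.7 and 25.5 CPM at 4 h, against 35.1, 23.6 and 25.3 CPM at 0 h (-0.47, adjusted p = 0.128), and it was called without replicate 3 at 4 h (-0.67, adjusted p = 0.0454).

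Among the inhibitors, Skil had 9.16, 8.06 and 4.69 CPM at 4 h, against 35.8, 38.9 and 22.9 CPM at 0 h (-2.15, SE 0.25, adjusted p = 7.02e-06). Ski had 12.8, 16.6 and 25.6 CPM at 4 h, against 44.3, 32.8 and 31.1 CPM at 0 h (-0.98, adjusted p = 0.00642), and Smurf2 had 19.5, 19.8 and 22.6 CPM at 4 h, against 35.7, 31.4 and 29.7 CPM at 0 h (-0.64, adjusted p = 0.00759). Skil, Ski and Smurf2 were lower in every 4 h library than in any 0 h library, Skil by the most. Smad7 was scarce, with 0.401, 1.09 and 0.3 CPM at 4 h, against 2.32, 1.05 and 1.75 CPM at 0 h, groups that overlapped slightly (-1.51, adjusted p = 0.0939; -2.27 and adjusted p = 0.0487 without replicate 2 at 4 h). In libraries labelled WT, where 24.2% of all genes were lower and 15.6% higher over 4 h, the pathway had 17 of 26 members lower and 1 higher (median -1.41), and no member passed the test of the difference between labels.

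Some genes that carry out mRNA decay were themselves among the falling transcripts, beside 18% of all genes lower. Of 33 tested genes of AU-rich element binding and deadenylation, 16 were lower and none higher (median -0.71). Zfp36l2, which binds AU-rich elements and brings in the CCR4-NOT deadenylase, had 2.86, 3.01 and 4.63 CPM at 4 h, against 45.8, 39.6 and 23.7 CPM at 0 h (-3.38, adjusted p = 2.76e-07). Tob2, an adaptor of the same deadenylase, had 0.859, 0.576 and 0.721 CPM at 4 h, against 13.9, 6.91 and 9.40 CPM at 0 h (-3.79, adjusted p = 1.09e-06), and Tnrc6a, the scaffold of microRNA silencing, had 10.6, 8.45 and 5.11 CPM at 4 h, against 33.8, 46.1 and 34.0 CPM at 0 h (-2.23, adjusted p = 5.38e-06). All 3 had groups far apart.

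Of decapping, exosome and nonsense-mediated decay genes, 12 of 37 were lower and 2 higher (median -0.25), beside 18% and 12.1% of all genes. With the block 5 were higher, without replicate 1 or 2 at 4 h none, without replicate 2 at 0 h 1, and without all libraries of replicate 2 only 6 were lower. Edc3, an enhancer of decapping, had 2.92, 1.28 and 2.22 CPM at 4 h, against 7.95, 14.9 and 13.2 CPM at 0 h (-2.48, adjusted p = 1.11e-05). Smg1, the kinase of nonsense-mediated decay, had 19.9, 23.6 and 13.0 CPM at 4 h, against 39.5, 59.1 and 39.6 CPM at 0 h (-1.29, adjusted p = 0.000455). Both had every 4 h library below every 0 h library.

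Among m6A writers, erasers and readers 8 of 24 were lower and 2 higher (median -0.39), beside 18% and 12.1% of all genes. The block gave 4 higher, without replicate 1 or 2 at 4 h none was higher, and leaving out any other single library gave 1. Writers and readers were both among those that fell. Zc3h13, which anchors the methyltransferase in the nucleus, had 10.6, 10.6 and 14.7 CPM at 4 h, against 38.8, 25.3 and 26.1 CPM at 0 h (-1.33, adjusted p = 8.35e-05), and Cbll1 (Hakai), a subunit of the same complex, had 14.3, 6.91 and 7.21 CPM at 4 h, against 27.4, 41.4 and 30.0 CPM at 0 h (-1.79, adjusted p = 0.000145). Ythdc2, a reader with a helicase domain, had 6.87, 9.28 and 5.71 CPM at 4 h, against 38.3, 19.1 and 15.3 CPM at 0 h (-1.73, adjusted p = 0.000442).

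Splicing factors mostly stayed near the median of all genes. SR proteins and their partners had 4 of 26 lower and none higher (median -0.30), 8 lower without replicate 3 at 0 h, and hnRNP proteins had 2 of 28 higher and 1 lower (median 0.16, negative by library size, by ribosomal protein genes and by TPM). The hnRNP count higher was 6 with the block and 1 without replicate 1 or 2 at 4 h or replicate 3 at 0 h, and 4 without replicate 1 at 0 h. The exceptions included the Clk kinases, which phosphorylate SR proteins and retain introns in their own pre-mRNA. Clk1 had 45.4, 21.4 and 29.1 CPM at 4 h, against 185, 131 and 115 CPM at 0 h (-2.16, adjusted p = 7.57e-06), and Clk4 had 67.2, 44.0 and 39.3 CPM at 4 h, against 180, 152 and 111 CPM at 0 h (-1.56, adjusted p = 0.000119). Luc7l3, a U1 snRNP protein, had 163, 121 and 104 CPM at 4 h, against 727, 233 and 172 CPM at 0 h (-1.54, adjusted p = 0.00486), or -0.65 (adjusted p = 0.0384) without replicate 1 at 0 h. Hnrnpk, an RNA-binding protein, had 1686, 1579 and 1056 CPM at 4 h, against 702, 927 and 818 CPM at 0 h (0.82, adjusted p = 0.00842).

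Histone-modifying enzymes leaned to the falling side, beside 18% of all genes lower and 12.1% higher. Histone acetyltransferases and methyltransferases were lower in 21 of 37 and higher in none (median -0.83), and histone demethylases in 10 of 20 (median -0.89; 6 without all libraries of replicate 2). Setd2, which places H3K36 trimethylation, lies at chr9:110532500-110618633 and had 7.67, 5.18 and 6.19 CPM at 4 h, against 45.5, 64.0 and 52.1 CPM at 0 h (-3.08, adjusted p = 4.62e-08). Kdm6a, which removes H3K27 methylation, had 3.09, 3.90 and 4.81 CPM at 4 h, against 35.6, 42.3 and 44.0 CPM at 0 h (-3.37, adjusted p = 3.04e-07). These 2 genes held a tight 0 h group and a tight 4 h group with a wide gap between them.

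Kdm2a, an H3K36 demethylase, fell by 2.32 on the log2 scale (adjusted p = 4.33e-07), and Kdm5b, an H3K4 demethylase, had 7.38, 6.27 and 9.25 CPM at 4 h, against 30.7, 39.6 and 46.4 CPM at 0 h (-2.35, adjusted p = 3.90e-06). Chromatin remodelling genes had 8 of 33 lower and 1 higher (median -0.35), beside 18% and 12.1% of all genes. By more than 2-fold, 3 of the 33 were lower, beside 14.7% of all genes. With the block 5 were higher. Without replicate 2 at 4 h 5 were lower and none higher, and without replicate 3 at 4 h 3 were higher. Chd1, a remodeller of transcribed genes, had 9.50, 5.12 and 3.60 CPM at 4 h, against 58.0, 50 and 31.9 CPM at 0 h (-2.94, adjusted p = 3.83e-06), and Arid1a, a BAF complex subunit, had 19.9, 18.5 and 24.9 CPM at 4 h, against 71.9, 50.1 and 47.2 CPM at 0 h (-1.42, adjusted p = 2.84e-05). Zbtb, Zkscan and Zscan zinc finger genes, mostly repressors, were lower in 31 of 50 with none higher (median -1.68). Zkscan1 had 14.1, 14.2 and 12.4 CPM at 4 h, against 62.8, 84.4 and 80.6 CPM at 0 h (-2.48, SE 0.17, adjusted p = 2.34e-08), and Zbtb6 had 3.55, 3.39 and 5.65 CPM at 4 h, against 28.4, 27.9 and 28 CPM at 0 h (-2.74, adjusted p = 1.05e-07).

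Cell cycle genes are set here beside a background of 12.1% of all genes higher and 18% lower. G1 cyclins, CDKs and inhibitors had 7 of 27 lower and 1 higher (median -0.14; 11 lower and 3 higher with the block, 2 higher without replicate 3 at 0 h and 3 without all libraries of replicate 3), and DNA replication genes had 9 of 45 lower and 1 higher (median 0.22, which was 0 by library size and negative by ribosomal protein genes and TPM; 5 higher with the block, none without replicate 1 at 4 h 2 without replicate 3 at 4 h or replicate 1 at 0 h and 11 without all libraries of replicate 3). Cdc25a, a phosphatase that admits cells to S phase, had 0.458, 0.32 and 0.240 CPM at 4 h, against 9.36, 9.68 and 5.10 CPM at 0 h (-4.53, adjusted p = 1.01e-05), and Orc1, the largest subunit of the origin recognition complex, had 1.26, 1.09 and 0.841 CPM at 4 h, against 9.52, 15 and 4.54 CPM at 0 h (-3.18, adjusted p = 3.60e-05). Both were far lower in every 4 h library.

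Mitosis genes had 4 of 40 lower and none higher (median -0.06), but 13 lower and 6 higher with the block. The count lower was 2 without replicate 3 at 4 h or replicate 1 at 0 h and 8 without replicate 3 at 0 h, and 3 were higher without replicate 3 at 4 h and 2 without replicate 2 at 0 h. Without all libraries of replicate 3, 10 were lower and 4 higher, and without those of replicate 2, 1 was lower. Birc5 (survivin), which guides chromosome segregation, had 269, 209 and 57.9 CPM at 4 h, against 261, 212 and 54.1 CPM at 0 h (0.02, adjusted p = 0.981), with replicate 3 low at both times and the replicates further apart than the times. Aurka, a spindle pole kinase, had 19.2, 17 and 6.01 CPM at 4 h, against 43.1, 91.4 and 32.4 CPM at 0 h (-1.98, adjusted p = 0.00646). Ndc80, a kinetochore protein, had 25.9, 20.4 and 8.89 CPM at 4 h, against 74.5, 67.4 and 26.5 CPM at 0 h (-1.61, adjusted p = 0.0141), and its call was lost without replicate 3 at 4 h (-1.28, adjusted p = 0.0523) or replicate 1 at 0 h (-1.35, adjusted p = 0.0576). Of p53 and its targets 11 of 33 were lower and 4 higher (median 0.01, negative by library size, by ribosomal protein genes and by TPM), with 8 higher with the block and 2 without replicate 1 at 4 h or replicate 1 or 2 at 0 h.

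Ribosome biogenesis factors, the assembly proteins and RNA polymerase I subunits that make new ribosomes, fell in 18 of 50 tested members and rose in 2 (median -0.30). With the block 21 fell and 6 rose. Without replicate 2 at 4 h 11 fell, without replicate 1 at 4 h 4 rose, and without all libraries of replicate 2 8 fell. Wdr43, a factor of early pre-rRNA processing, had 13.3, 12 and 22.2 CPM at 4 h, against 87.0, 88.9 and 72.6 CPM at 0 h (-2.39, adjusted p = 1.02e-06). Gnl3 (nucleostemin), a nucleolar GTPase of stem cells, had 26.6, 32.0 and 38.8 CPM at 4 h, against 225, 178 and 95.4 CPM at 0 h (-2.36, adjusted p = 1.81e-06). Polr1c, a subunit of RNA polymerases I and III, had 41.7, 40.6 and 42.3 CPM at 4 h, against 242, 154 and 114 CPM at 0 h (-2.03, adjusted p = 2.99e-06). The 4 h levels of Polr1c were nearly the same in all libraries while the 0 h levels spread widely. Rpp38, a protein of RNase P and RNase MRP, was among the 10 largest falls, with 3.38, 2.62 and 4.21 CPM at 4 h, against 132, 74.1 and 55.1 CPM at 0 h (-4.67, adjusted p = 3.45e-08).

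The 2 h libraries show when in the window these falls took place. The comparisons of 2 h with 0 h and of 4 h with 2 h share the 2 h libraries, and each shares a group with the 4 h comparison, so their values are given side by side and not counted as separate evidence. Between 2 h and 4 h, 111 genes were lower (0.791%) and none higher by edgeR's quasi-likelihood test, with 316 genes higher at an unadjusted p under 0.05 and 11 by DESeq2. Without replicate 2 at 4 h only 1 gene was lower, and 188, 50 and 44 were without replicate 3 at 4 h and replicates 1 and 2 at 2 h. The genes lower by more than 2-fold over 4 h had a median log2 change of -1.25 at 2 h over 0 h and -0.65 at 4 h over 2 h.

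Klf6 and Dusp6 had reached their low level by 2 h. Klf6 had 197, 260 and 289 CPM at 0 h, 8.32, 5.24 and 5.88 CPM at 2 h and 6.98, 6.33 and 7.87 CPM at 4 h, a late log2 change of 0.12 (adjusted p = 0.919). Rasl11a and Rnd3 went on falling. Rasl11a had 6.99, 8.38 and 11.1 CPM at 2 h (late log2 change -1.99, adjusted p = 0.00653), and Rnd3 had 17.4, 21.4 and 30.5 CPM at 2 h (-1.77, adjusted p = 0.00700). Only 1 gene of all was called lower in this interval without replicate 2 at 4 h, so at most 1 of these calls held there. Without all libraries of replicate 2, or with only the libraries compared fitted, no gene was called lower and neither call held.

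The well expressed genes with the smallest p in the late comparison were Zkscan1, Nmd3, Kbtbd2, Mphosph10, Cirh1a and Psmg3. Nmd3, the adaptor that exports the large ribosomal subunit, had 204, 162 and 124 CPM at 0 h, 49.6, 41.3 and 46.0 CPM at 2 h and 17.8, 14.5 and 22.4 CPM at 4 h (late log2 change -1.32, adjusted p = 0.00653). Mphosph10 and Cirh1a, both of the small subunit processome, had late changes of -1.27 and -1.30 (adjusted p = 0.00743 and 0.00891). Zkscan1 had 35.7, 28.5 and 26.8 CPM at 2 h and a late change of -1.16 (adjusted p = 0.00571). Kbtbd2, an adaptor of a ubiquitin ligase, had 21.9, 19.9 and 27.8 CPM at 4 h, against 71.4, 52.1 and 43.7 CPM at 2 h (-1.26, adjusted p = 0.00743).

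Psmg3, a proteasome assembly chaperone, had 32.2, 45.3 and 41.9 CPM at 0 h, 41.0, 33.2 and 33.0 CPM at 2 h and 17.6, 16.2 and 20.5 CPM at 4 h (late log2 change -0.98, adjusted p = 0.0112). Its 0 h and 2 h groups overlapped and its 4 h group lay below both. Aurka had 43.1, 91.4 and 32.4 CPM at 0 h and 78.8, 53.5 and 14.3 CPM at 2 h, and its late change of -1.80 did not pass (adjusted p = 0.116; 0.00573 with the block). Each of the 6 genes named first lost the call without replicate 2 at 4 h. Their log2 changes were then -1.20 for Zkscan1 and -1.19 for Nmd3 (adjusted p = 0.0581 each), -1.17 for Kbtbd2 and -1.24 for Mphosph10 (0.0605 each), -1.21 for Cirh1a (0.0879) and -0.91 for Psmg3 (0.103).

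**Figure D3:**
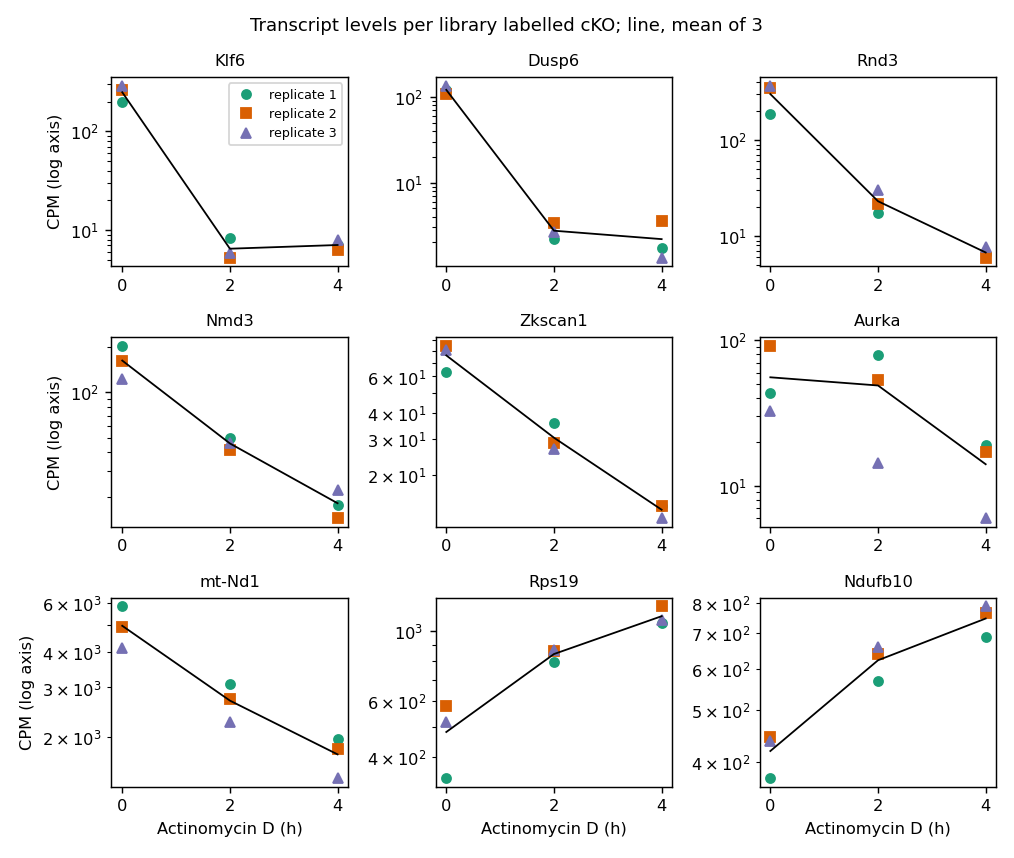
Levels of 9 genes in CPM on a logarithmic axis at 0, 2 and 4 h of actinomycin D in the libraries labelled cKO, with 1 symbol per replicate and a line through the means of 3. Klf6 and Dusp6 were at their low level by 2 h, and Rnd3, Nmd3 and Zkscan1 fell in both intervals. The means of Rps19 and Ndufb10 rose in both, but edgeR's quasi-likelihood test called no gene higher at 4 h over 2 h.

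Cytosolic ribosomal protein genes rose as a group relative to other transcripts. Of 79 tested members 73 were higher and none lower, against 12.1% higher among all genes tested, and their log2 changes lay in a narrow range, 0.17 to 1.28 (median 0.74). The direction rests on the scaling: the median was 0.51 by library size and 0.35 with TPM, and 0.02 with these genes themselves as reference. Ribosomal protein genes and Gapdh have many near-identical processed pseudogenes, and how reads shared with them were counted is not given in the sources used here. Rps19, of the small subunit, had 1056, 1193 and 1079 CPM at 4 h, against 344, 580 and 517 CPM at 0 h (1.21, SE 0.17, adjusted p = 5.29e-05). Rpl29, of the large subunit, had 490, 560 and 492 CPM at 4 h, against 271, 269 and 223 CPM at 0 h (1.01, SE 0.13, adjusted p = 1.91e-05). For both the 4 h group was tight and well above the 0 h group.

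Rps12 was an exception, with 332, 371 and 312 CPM at 4 h, against 552, 221 and 130 CPM at 0 h (0.17, adjusted p = 0.733). Its replicate 1 at 0 h lay above all 4 h libraries, and without that library the change was 0.95 (adjusted p = 0.00209), while without replicate 2 or 3 at 0 h it was -0.01 or -0.19. In libraries labelled WT 76 of the 79 genes were higher (median 0.75).

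Many ribosomal protein mRNAs begin with a C followed by an unbroken run of pyrimidines, the 5′ terminal oligopyrimidine motif that ties their translation to mTOR signalling. Start windows of ribosomal protein genes chosen for such a run are shown beside those of Atp5h, Klf6 and Dusp6, which have none. No ribosomal protein gene without a run is shown. Each is 10 bases before and 20 bases from the annotated RefSeq start (GRCm38.p6), 5′ to 3′ on the strand of the gene, and capitals mark the run where it begins at the start itself.
Rplp2, chr7:141447641-141447670, plus strand: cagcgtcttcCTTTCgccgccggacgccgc
Rps18, chr17:33955646-33955675, minus strand: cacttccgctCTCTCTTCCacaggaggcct
Rps15a, chr7:118116128-118116157, minus strand: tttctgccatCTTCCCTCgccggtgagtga
Rpl14, chr9:120571507-120571536, plus strand: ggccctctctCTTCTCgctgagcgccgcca
Fau, chr19:6057937-6057966, plus strand: gcccccacttCTTCCTCTTTCTTgactcca
Atp5h, chr11:115419900-115419929, minus strand: ttgctggagagagagcactccgccgggggt
Klf6, chr13:5861479-5861508, plus strand: gaggaggggggaggctggcagcggagcttt
Dusp6, chr10:99263221-99263250, plus strand: ggctgtttgtatccattgaggagctgcctc
A C followed by at least 4 C or T bases, beginning between 5 bases before and 5 bases after the annotated start on the sense strand, was present for 28 of 57 ribosomal protein genes with a window (49.1%). The share was 23.7% of the 9655 genes with a window, 22.5% of those lower by more than 2-fold and 26.0% of those that rose. It was 27.0% in respiratory complex I to V genes and 17.9% in the immediate early and ERK feedback lists. A gene counted if any of its windows, up to 9 per gene, had the run. The windows were chosen with values known, and annotated starts may differ from the starts used in these cells.

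The ribosomal protein genes with printed runs rose by similar amounts. Rplp2 had 356, 437 and 367 CPM at 4 h, against 225, 224 and 188 CPM at 0 h (0.86, adjusted p = 0.000284), and Rps18 had 1163, 1132 and 962 CPM at 4 h, against 570, 700 and 490 CPM at 0 h (0.89, adjusted p = 0.000319). Rps15a rose by 0.86, Rpl14 by 1.08 and Fau, which encodes a fusion of a ubiquitin-like protein with a small subunit protein, by 0.98 (adjusted p = 0.000423, 0.000435 and 0.000512). Atp5h, printed without a run, rose by 0.82, and whether the run goes with the rise was not tested.

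Nuclear genes of the respiratory chain moved like the ribosomal proteins. Of 37 tested genes of complex I, which takes electrons from NADH, 32 were higher and none lower (median 0.76), and of 39 genes of complexes II to V 32 were higher and none lower (median 0.68). Without all libraries of replicate 2 these counts were 18 and 20. Scaled to the ribosomal protein genes, the medians were 0.02 and -0.06. Ndufb10, of complex I, had 688, 765 and 789 CPM at 4 h, against 372, 446 and 438 CPM at 0 h (0.83, SE 0.13, adjusted p = 0.000114), and Ndufs6, of the same complex, had 329, 360 and 366 CPM at 4 h, against 198, 217 and 201 CPM at 0 h (0.78, adjusted p = 0.000301). Atp5h and Atp5a1 encode subunits of ATP synthase. Atp5h had 1205, 1257 and 1236 CPM at 4 h, against 700, 730 and 661 CPM at 0 h (0.82, adjusted p = 9.17e-05), and Atp5a1 had 1626, 1922 and 1428 CPM at 4 h, against 676, 958 and 977 CPM at 0 h (0.93, adjusted p = 0.000271). Cox6b1, of cytochrome c oxidase, had 1900, 1865 and 2075 CPM at 4 h, against 1109, 1175 and 1181 CPM at 0 h (0.75, adjusted p = 0.000280). In all 5 the lowest 4 h library was above the highest 0 h library, and groups did not overlap for 86.6% of all genes called higher.

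The mRNAs that mitochondria encode for the same complexes went the other way. Of 8 tested, 5 were lower and none higher (median -0.85), and the median was negative under each of the 6 scalings. mt-Nd1 had 1966, 1806 and 1425 CPM at 4 h, against 5849, 4921 and 4162 CPM at 0 h (-1.52, SE 0.16, adjusted p = 2.95e-06). mt-Nd2 had 592, 694 and 834 CPM at 4 h, against 1527, 1464 and 1455 CPM at 0 h (-1.07, adjusted p = 0.000150), and mt-Nd5 had 704, 735 and 856 CPM at 4 h, against 1474, 1293 and 1324 CPM at 0 h (-0.83, adjusted p = 0.000115). All 3 encode complex I subunits and had groups far apart. mt-Co1, of cytochrome c oxidase, had 5466, 8604 and 9972 CPM at 4 h, against 5878, 7810 and 7224 CPM at 0 h (0.20, adjusted p = 0.478), with a sign that flipped by library size, by ribosomal protein genes and by TPM. In libraries labelled WT 3 of the 8 were lower and 1 higher (median -0.14). No mitochondrial mRNA passed the test of the difference between labels, and 3 did, all negative, with the block. Nuclear copies of mitochondrial DNA can share reads with these genes.

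Mitochondrial ribosomal proteins rose in 25 of 77 tested members and fell in 4 (median 0.41, but -0.02 with TPM and -0.31 by ribosomal protein genes). With the block 41 rose and 8 fell, without replicate 2 at 4 h 14 rose, and without replicate 3 at 4 h 7 fell. Mrpl14 had 107, 130 and 131 CPM at 4 h, against 48.1, 68.8 and 71.0 CPM at 0 h (0.97, adjusted p = 0.000687). Proteasome subunits rose in 21 of 41 with none lower (median 0.51, and -0.23 by ribosomal protein genes), or 9 without replicate 2 at 4 h. Psme1, of the 11S activator, had 58.2, 75.7 and 78.5 CPM at 4 h, against 24.5, 34.0 and 38.1 CPM at 0 h (adjusted p = 0.000485).

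Lysosome and autophagy genes rose in 24 of 46 and fell in 2 (median 0.70, and -0.06 by ribosomal protein genes). The count was 13 without replicate 1 and 11 without replicate 2 at 4 h. Gabarap, an autophagosome membrane protein, had 59.9, 57.6 and 60.9 CPM at 4 h, against 29.3, 33.4 and 35.8 CPM at 0 h (0.86, adjusted p = 0.000519), and Npc2, which carries cholesterol out of the lysosome, had 662, 637 and 558 CPM at 4 h, against 279, 399 and 391 CPM at 0 h (0.80, adjusted p = 0.000727). Tubulin and actin cytoskeleton genes rose in 14 of 43 and fell in 1 (median 0.36, but -0.04 with TPM and -0.39 by ribosomal protein genes), with 23 rising with the block, 5 without replicate 2 at 4 h, and none falling without replicate 1 or 2 at 4 h or replicate 1 at 0 h. Cfl1 (cofilin), which severs actin filaments, had 1069, 1140 and 1010 CPM at 4 h, against 473, 603 and 562 CPM at 0 h (0.97, adjusted p = 8.97e-05).

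Glycolysis and hypoxia response genes moved both ways. Of 33 tested, 12 rose and 4 fell (median 0.42, and -0.31 by ribosomal protein genes), and 4 rose without replicate 2 at 4 h. The enzymes Gapdh and Pkm2 were among those that rose. Gapdh had 873, 1042 and 776 CPM at 4 h, against 252, 545 and 508 CPM at 0 h (1.04, adjusted p = 0.00155), and Pkm2, pyruvate kinase, had 2832, 2423 and 1431 CPM at 4 h, against 217, 858 and 959 CPM at 0 h (1.72, adjusted p = 0.00426). For both, replicate 1 at 0 h was by far the lowest library. Among those that fell, Adm, the hypoxia-induced peptide adrenomedullin, had 0.916, 0.704 and 0.661 CPM at 4 h, against 34.4, 70.6 and 80.7 CPM at 0 h (-6.33, adjusted p = 8.97e-08), and Pfkfb3, which makes the allosteric activator of phosphofructokinase, had 7.50, 8.83 and 5.05 CPM at 4 h, against 19.1, 33.3 and 28.8 CPM at 0 h (-1.93, adjusted p = 3.57e-05).

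Serine, one-carbon and amino acid synthesis genes rose in 10 of 26 and fell in 1 (median 0.61, and -0.16 by ribosomal protein genes). With the block 3 fell, and 4, 3 and 6 rose without replicate 1 at 4 h, replicate 2 at 4 h and replicate 1 at 0 h, while 2 fell without replicate 3 at 0 h. Phgdh, the first enzyme of serine synthesis, had 105, 161 and 95.2 CPM at 4 h, against 20.8, 54.4 and 54.2 CPM at 0 h (1.48, adjusted p = 0.00284). Mat2a, which makes the methyl donor used for m6A, had 146, 138 and 98.9 CPM at 4 h, against 224, 387 and 294 CPM at 0 h (-1.24, adjusted p = 0.000589). ATF4 stress genes and aminoacyl-tRNA synthetases had 8 of 29 higher and 5 lower (median 0.33, but -0.07 with TPM and -0.43 by ribosomal protein genes). Without replicate 1 at 4 h 2 were higher and 3 lower, without replicate 2 at 4 h 1 was higher and 2 lower, without replicate 1 at 0 h 4 were higher, and without replicate 2 or 3 at 0 h 3 were lower. Atf4, the transcription factor of the amino acid response, had 3.26, 4.09 and 7.45 CPM at 4 h, against 14.9, 19.7 and 27.0 CPM at 0 h (-2.06, adjusted p = 0.00102), and Herpud1, of endoplasmic reticulum quality control, fell by 2.85 on the log2 scale (adjusted p = 0.000267).

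Cholesterol synthesis and uptake genes leaned lower, with 10 of 27 lower and 2 higher (median -0.16). The block gave 4 higher, leaving out replicate 2 at 4 h or any single 0 h library gave 1 higher, and leaving out all libraries of replicate 2 gave 6 lower. Sc4mol, a methylsterol oxidase, had 328, 320 and 550 CPM at 4 h, against 1663, 1729 and 1474 CPM at 0 h (-2.02, adjusted p = 1.29e-06). Sqle, squalene epoxidase, had 87.8, 114 and 156 CPM at 4 h, against 244, 235 and 258 CPM at 0 h (-1.04, adjusted p = 0.000736), and Stard4, a sterol carrier, fell by 1.55 (adjusted p = 0.000369). Hmgcs1, which makes HMG-CoA, had 2800, 2466 and 1829 CPM at 4 h, against 1737, 2676 and 2481 CPM at 0 h, groups that overlapped (0.04, adjusted p = 0.895; -0.14 and -0.02 without replicate 1 or 2 at 4 h and -0.12 without replicate 1 at 0 h). In libraries labelled WT 2 of the 27 were lower and 5 higher (median 0.25). No member passed the test of the difference between labels, and 3 did, all negative, with the block.

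Heat shock chaperones had 4 of 31 higher and 3 lower (median 0.15, negative by library size, by ribosomal protein genes and by TPM), 10 higher and 6 lower with the block, and 2 higher without replicate 2 and 7 without replicate 3 at 4 h. Dnajb4, a co-chaperone of Hsp70, had 28.4, 30.0 and 47.8 CPM at 4 h, against 129, 119 and 140 CPM at 0 h (-1.87, adjusted p = 8.18e-06). Noncoding RNAs with known roles changed little as lists. Among snoRNA host genes 4 of 17 were lower and 2 higher (2 lower without replicate 3 at 4 h or replicate 2 at 0 h, and none higher without replicate 1 or 2 at 4 h or replicate 2 or 3 at 0 h, and 1 without replicate 1 at 0 h), among nuclear long noncoding RNAs 1 of 13 was lower, and among 25 collagens none was called (up to 1 in either direction without 1 library). Of 36 protocadherins 2 were higher and 1 lower (0 to 4 and 0 to 2 without 1 library), and of 38 radial glia and quiescence markers 5 were higher and 5 lower (14 higher with the block, 3 without replicate 2 at 0 h). Snhg5, a snoRNA host, had 5.78, 4.61 and 11.7 CPM at 4 h, against 41.6, 41.5 and 23.5 CPM at 0 h (-2.27, adjusted p = 5.55e-05). Kcnq1ot1, an antisense RNA of an imprinted locus, had 18.8, 12.8 and 12.8 CPM at 4 h, against 60.0, 46.2 and 36.2 CPM at 0 h (-1.68, adjusted p = 6.71e-05). The SMART-seq2 libraries do not record strand, so its reads cannot be told from those of Kcnq1.

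The largest rises were small beside the falls and rested partly on 1 library. Among well expressed genes with groups that did not overlap, the 10 largest rises included Pkm2, Atg7, Pdrg1, Mfge8, Phgdh, Stom and Bcat2. Atg7, which activates the autophagy conjugation system, had 48.2, 50.2 and 29.4 CPM at 4 h, against 5.55, 20.9 and 17.1 CPM at 0 h (1.55, adjusted p = 0.00245). Mfge8, a secreted bridge to phosphatidylserine, had 757, 612 and 346 CPM at 4 h, against 90.0, 252 and 262 CPM at 0 h (1.5, adjusted p = 0.00447), and Stom (stomatin), a membrane scaffold, had 38.1, 47.4 and 30.8 CPM at 4 h, against 4.80, 14.5 and 22.5 CPM at 0 h (1.47, adjusted p = 0.00545). In these genes, as in Pkm2, the change within replicate 1 was the largest of the 3, at 3.09 for Atg7, 3.07 for Mfge8 and 2.95 for Stom, against 0.77, 0.40 and 0.45 within replicate 3.

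Pdrg1, a prefoldin-like protein, had 105, 154 and 222 CPM at 4 h, against 27.2, 42.8 and 96.7 CPM at 0 h (1.53, adjusted p = 0.00597), or 2.19 without replicate 3 at 0 h. Bcat2, which breaks down branched-chain amino acids, had 23.5, 45.9 and 38.3 CPM at 4 h, against 3.81, 14.4 and 21.4 CPM at 0 h (1.44, adjusted p = 0.0120), and lost its call without replicate 2 at 4 h (1.19, adjusted p = 0.0694). Scaled to the ribosomal protein genes, every gene named here as risen lost its call except the neuronal gene Stmn2 (1.21, adjusted p = 0.0208).

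Cell type markers are set here beside a background of 12.1% of all genes higher and 18% lower over the same 4 h. Neural stem cell markers had 4 of 10 lower and 1 higher, with none higher without replicate 1 at 4 h or replicate 1 or 2 at 0 h. Neuron markers had 2 of 10 lower and 2 higher. Stmn2 had 12, 12.2 and 15.6 CPM at 4 h, against 1.91, 2.63 and 5.42 CPM at 0 h (2.00, adjusted p = 0.000294), and Snap25 had 29.3, 20.4 and 19.0 CPM at 4 h, against 54.2, 35.6 and 35.7 CPM at 0 h (-0.87, adjusted p = 0.00937), or -0.64 (adjusted p = 0.0518) without replicate 1 at 0 h. The summed neuron markers were 327 to 930 CPM at 4 h and 403 to 519 CPM at 0 h, ranges that overlapped. Of 8 astrocyte markers 1 was higher (5 with the block), of 10 oligodendrocyte lineage markers 1 was lower, of 10 fibroblast and meningeal markers 2 were higher, and no endothelial, ependymal or microglial marker was called. In bulk libraries fewer cells of a type and less RNA per cell cannot be told apart. The part of these markers in the other changes was not tested.

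The same test over 4 h in libraries labelled WT, which share no library with those labelled cKO, called 2194 genes higher (15.6%) and 3402 lower (24.2%). The difference between these 4 h changes passed in 3 genes (0.0214%), all positive, with 875 positive and 350 negative differences at an unadjusted p under 0.05. DESeq2 called 60 positive and 29 negative differences, and the fit with the block called 199 and 97. A gene called under 1 label and not the other is therefore not shown to differ.

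Ddx10, a helicase of ribosome biogenesis at chr9:53098454-53248170, had 12.2, 14.8 and 15.8 CPM at 4 h and 33.2, 32.1 and 26.6 CPM at 0 h in libraries labelled cKO (log2 change -1.10). In libraries labelled WT it had 4.96, 6.30 and 5.11 CPM at 4 h and 44.1, 35.0 and 34.0 CPM at 0 h (-2.79), a difference of 1.69 (SE 0.26, adjusted p = 0.0367). Enc1, a cytoskeletal adaptor of a ubiquitin ligase, had 20.0, 11.5 and 15.4 CPM at 4 h and 37.1, 40.8 and 33.7 CPM at 0 h in libraries labelled cKO (-1.25). Libraries labelled WT had 9.60, 7.92 and 7.96 CPM of Enc1 at 4 h and 82.6, 86.0 and 111 CPM at 0 h (-3.45), a difference of 2.20 (SE 0.35, adjusted p = 0.0367).

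Bag5, a nucleotide exchange factor of Hsp70, had 45.3, 43.2 and 53.4 CPM at 4 h and 122, 109 and 108 CPM at 0 h in libraries labelled cKO (-1.26), and 13.4, 17.9 and 15.9 CPM at 4 h and 95.7, 114 and 107 CPM at 0 h in libraries labelled WT (-2.75), a difference of 1.49 (SE 0.24, adjusted p = 0.0367). At 4 h every library labelled cKO lay above every library labelled WT in all 3 genes. At 0 h the labels overlapped for Bag5, whereas Ddx10 and Enc1 were lower in every library labelled cKO than in any labelled WT, Ddx10 by little. The calls were near the threshold: with RLE scaling the adjusted p was 0.0651 for each, and leaving out most single libraries ended them, except that all 3 held without replicate 1 at 0 h labelled cKO and Ddx10 also without replicate 1 at 4 h. Ddx10 was the only one of the 50 ribosome biogenesis genes to pass, and 5 did, all positive, with the block. Of the 50, 18 were lower in libraries labelled cKO (median -0.30) and 29 in those labelled WT (median -0.84), beside 18% and 24.2% of all genes, and the difference between these counts was not tested.

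**Figure D4:**
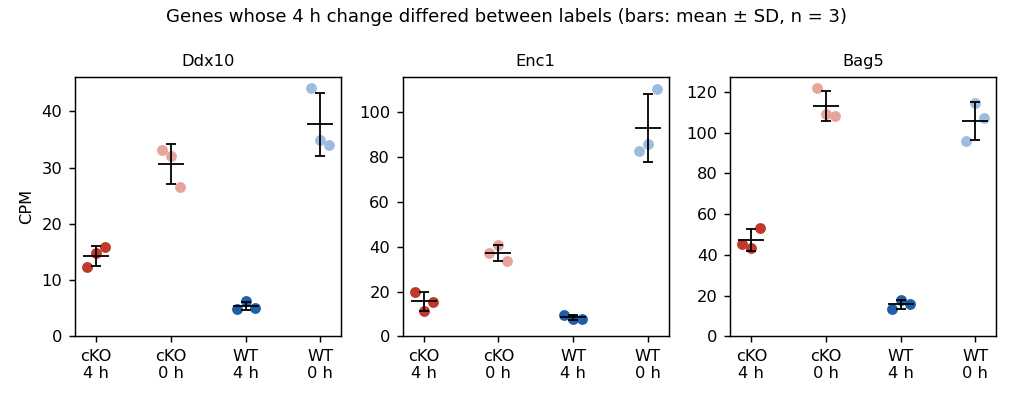
CPM of Ddx10, Enc1 and Bag5 in each library labelled cKO or WT at 4 h and 0 h, with bars at the mean and SD of 3 libraries. At 4 h every library labelled cKO lies above every library labelled WT, by the most in Bag5 (43.2 to 53.4 CPM against 13.4 to 17.9 CPM).

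The m6A and YTHDF2 pull-downs, from cells labelled WT, are independent of the decay libraries. For each class of 4 h change the median log2 ratio of pull-down over input was taken in each of 3 pull-down libraries. Genes lower by more than 2-fold had medians of 0.22, 0.12 and 0.19 in the m6A pull-down (mean 0.18 ± 0.05, SD, n = 3 libraries, 2021 genes). Genes that rose had -0.38, -0.30 and -0.32 (-0.33 ± 0.04, 1667 genes), and genes not called stood at 0. In each pull-down library the median of genes lower by more than 2-fold was above that of genes that rose.

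In the YTHDF2 pull-down the medians were 0.49, 0.69 and 0.70 for genes lower by more than 2-fold (0.63 ± 0.12, 2005 genes) and -0.47, -0.79 and -0.87 for genes that rose (-0.71 ± 0.21, 1664 genes). The IgG control gave the same order, 0.25 ± 0.10 for genes lower by more than 2-fold and -0.45 ± 0.18 for genes that rose, and YTHDF2 over IgG left 0.33 and -0.23. The sign of the YTHDF2 values rests on the sample descriptions and column names, since the sample titles name Input and YTHDF2 the other way round. Read by the titles, the medians are -0.63 and 0.72, and the IgG values and YTHDF2 over IgG, which rest on the same reading, turn sign as well. Within genes of a mean log2 CPM between 4 and 6 the medians were 0.15 and -0.21 for m6A and 0.54 and -0.67 for YTHDF2. The band was chosen after seeing the data, and level and transcript length were not matched within it.

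**Figure D5:**
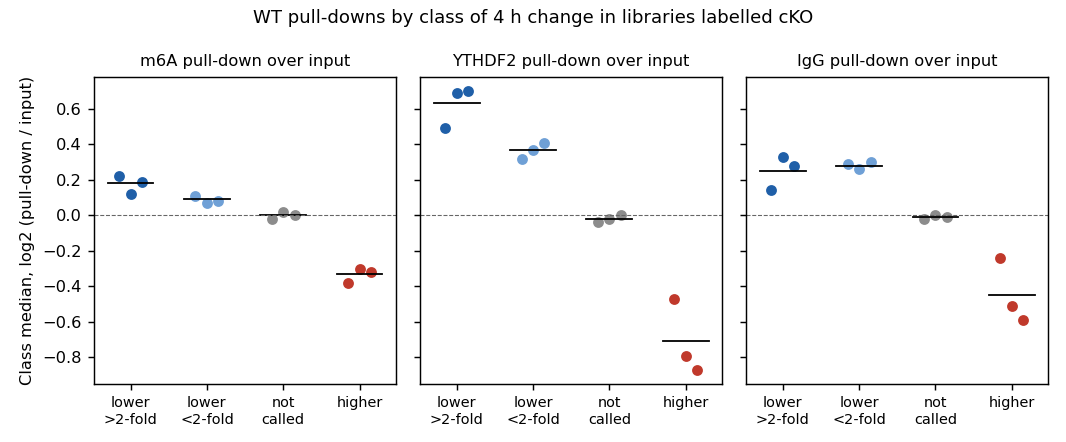
Median log2 ratio of pull-down over input in 4 classes of genes by their 4 h change in libraries labelled cKO, for the m6A, YTHDF2 and IgG pull-downs of WT cells, with 1 point per pull-down library and a line at the mean of 3. Genes lower by more than 2-fold lie highest for m6A and YTHDF2 and genes that rose lie lowest in all panels, the IgG control included.

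Single transcripts varied widely within these classes. Among genes that fell, Spry2 had a mean log2 ratio of 1.59 in the YTHDF2 pull-down and 0.41 in IgG, Smad3 had 1.58 and -0.40, Kbtbd2 had 1.59 and 0.11, and Zkscan1 had 1.24 and -0.22. Their m6A ratios were 0.12, 0.51, 0.31 and 0.25. Clk1 had a YTHDF2 ratio of 1.62 but an IgG ratio of 2.13, and its m6A ratio was -0.07. Dusp6 had 0.79 for m6A and -0.13 for YTHDF2, and Tgfbr1 had -0.05 and -1.21. Rps19, which rose, had -1.33 for m6A, -2.13 for YTHDF2 and -1.59 for IgG. mt-Nd1 fell over 4 h and yet had ratios of -1.41, -2.35 and -1.81.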

How the data were processed

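The authors deposited raw counts per gene symbol and TPM values for SMART-seq2 RNA-seq libraries, and raw counts for m6A and YTHDF2 pull-downs made with a modified SMART-seq3 protocol. Per the submitters' processing notes, tools included bcl2fastq 2.17.1.14, Trimmomatic 0.32 and STAR 2.5.2a with build GRCm38; neither the counter nor its annotation is named there. The deposited TPM values served for relative transcript length and for 1 alternative, limma 3.58.1 on log2(TPM + 1).

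Counts of 18 RNA-seq libraries (cKO and WT labels at 0, 2 and 4 h, 3 each) were fitted together with edgeR 4.0.16 in R 4.3.3 (TMM, filterByExpr, quasi-likelihood test, Benjamini-Hochberg adjusted p under 0.05). This left 14029 of 26621 symbols; 12265 of those tested matched RefSeq. All adjusted p-values in the text come from this test unless another tool is named. Scripts were tested on simulated data. Alternatives included DESeq2 1.42.0 and other scalings. Labels do not say whether replicates came from separate animals, so p-values measure the spread between these samples, which may be technical. Same-numbered libraries at 4 h and 0 h deviated together (residual correlations 0.34, 0.35 and 0.40; other pairs -0.40 to -0.02), so the numbers pair the samples. The main fit left this pairing out, because the labels state no block. Only the results given as with the block use it, and many list counts differ between the 2 fits. Pull-down ratios are log2 CPM differences with a prior count of 2; pull-down depth was 8419106 to 28334300 counts.

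Members and the 52 gene lists (44 pathway, 8 marker) were chosen with earlier results of these data known. Named genes are Ythdf2, the 10 largest called falls and rises among well expressed genes (mean log2 CPM of at least 4) with groups that do not overlap, the 3 smallest p and the smallest change in each list, a TGF-β set, and the smallest p in the other comparisons. Of the 233 genes this names, 128 are given, a selection made with values known and without items not reported here, and 5 (Rplp2, Rps18, Rps15a, Rpl14 and Fau) stand outside it for their sequences.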

Additional observations from a re-analysis of the deposited data

Results flagged for a closer look

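The 4 h change differed between labels in 3 genes, by the test of the difference itself (edgeR's quasi-likelihood test, adjusted p = 0.0367 each). The log2 change in libraries labelled cKO minus that in libraries labelled WT was 1.69 for Ddx10, 2.20 for Enc1 and 1.49 for Bag5, and in each gene the fall was smaller in the libraries labelled cKO. With the replicate number as a block the adjusted p was 0.00751 for Ddx10 and 0.00711 for Enc1 and Bag5. Leaving out single libraries gave 1.51 to 1.76 for Ddx10, 1.87 to 2.31 for Enc1 and 1.27 to 1.58 for Bag5 where the call was lost, with adjusted p of 0.0669 to 0.29.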

How the results depend on the processing

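Of 142 named gene results, 83 kept their call under all alternatives and all 142 kept it with the replicate block. Scaled by library size alone, 515 genes were higher, 99 by more than 2-fold, and scaled to the ribosomal protein genes 30 and 27, with 5517 lower (4212 by more than 2-fold). On log2(TPM + 1), 278 were higher (47 by more than 2-fold) and 3841 lower. Fitting only the libraries compared, with fewer samples to estimate the spread, gave 149 higher (84) and 1298 lower (1285), and the block gave 2966 higher. Without 1 library the counts ranged over 887 to 1898 higher, 2062 to 2614 lower, 223 to 856 and 1806 to 2175 by more than 2-fold; without all libraries of 1 replicate number, chosen after seeing the data, over 622 to 2321, 1665 to 2884, 247 to 919 and 1545 to 2343.

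For 4 h over 2 h, genes higher were 11 (DESeq2), 1 (no filter), 2 (TPM) and 52 (block), and genes lower 384 (library size), 700 (ribosomal protein genes), 342 (DESeq2), 329 (TPM), 0 (only the libraries compared; 650 at an unadjusted p under 0.05) and 432 (block). Without 1 library they were 0 to 2 and 1 to 188, and without 1 replicate number 0 to 2 and 0 to 251. Positive differences between labels were 0 (RLE; 671 unadjusted), 19 (library size), 60 (DESeq2), 1 (no filter), 58 (TPM), 0 (only the libraries compared; 601 unadjusted) and 199 (block), and negative ones 29 (DESeq2), 26 (TPM) and 97 (block); without 1 library 0 to 8 and 0 to 3, and without 1 replicate number 0 to 31 and 0 to 14.

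Genes that were not called changed sign, and some gained a call. Scaled to the ribosomal protein genes, log2 changes were -0.50 (Notch1), -0.51 (Tgfb2 and Rps12), -0.45 (Vim), -0.43 (Nfia), -0.67 (Birc5), -0.53 (mt-Co1), -0.72 (Hmgcs1, called at an adjusted p of 0.00682), -0.21 (Ltbp3) and -0.66 (Bmpr2). That scaling also called Ythdf2 (-0.88, 0.0363), Smad4 (-1.18, 0.00155), Rela (-0.94, 0.0437) and Smad7 (-2.29, 0.012), and TPM called Smad4 and Smad7 lower. On TPM they were -0.15 (Notch1), -0.20 (Tgfb2), -0.31 (Vim), -0.09 (Nfia), -0.35 (Birc5), -0.23 (mt-Co1), -0.36 (Hmgcs1) and -0.29 (Bmpr2). By library size they were -0.02 (Tgfb2), -0.20 (Birc5), -0.03 (Rps12 and mt-Co1), -0.22 (Hmgcs1) and -0.15 (Bmpr2). Leaving out 1 library or 1 replicate number gave -0.58 to 0.67 for Ythdf2, -0.10 to 0.41 for Tgfb2, -0.23 to 0.58 for Vim, -0.44 to 0.44 for Birc5, -0.19 to 0.96 for Rps12, -0.26 to 0.26 for Hmgcs1 and -0.34 to 0.39 for Bmpr2. Leaving out replicate number 2 also ended the calls of Aurka (-1.58, adjusted p = 0.0874), Pdrg1 (1.40, 0.0712), Stom (1.33, 0.0701) and Hnrnpk (0.85, 0.0524), and leaving out number 1 or 2 those of Ski (-0.60 and -0.97, 0.054 and 0.0577) and Smurf2 (-0.52 and -0.64, 0.0504 and 0.071). The cause was not tested.

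Pull-down medians are given here in the order lower by more than 2-fold, lower by less, not called, higher. By library size they were 0.39, 0.30, 0.21 and -0.12 for m6A and 0.89, 0.63, 0.24 and -0.45 for YTHDF2. Titles in place of descriptions gave -0.63, -0.36, 0.03 and 0.72, and IgG in place of input 0.33, 0.02, -0.08 and -0.23. In genes of log2 CPM 4 to 6, m6A was -0.21 for higher genes and YTHDF2 was -0.11 for genes not called. Without 1 pull-down library the m6A medians were 0.16 to 0.20, 0.08 to 0.10, -0.01 to 0.01 and -0.35 to -0.31, and the YTHDF2 medians 0.59 to 0.70, 0.34 to 0.39, -0.03 to -0.01 and -0.83 to -0.63. The comparison of AU-rich motifs in 3′ UTRs was not run, since no transcript sequences were used here. With 3 libraries a group, an exact permutation test of 1 gene could not go below 0.1.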
